A study of Mus musculus with 6 samples.

Results

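The genes described here encode the folding machinery of the endoplasmic reticulum (ER) and the unfolded protein response that adjusts it. The module held 35 genes of the 18193 genes that the arrays measured through probe sets with a single gene symbol. They were chosen by function, with earlier results of these data known. All 35 were measured, 33 under the listed symbol and 2, Ero1l and Ero1lb, under the newer symbols Ero1a and Ero1b. They were read by 81 probe sets, and each gene was represented by its brightest one, averaged across all 6 arrays. The chosen probe sets of all 35 lay above the median gene, and whether each was detected was not tested. By role, 11 were ER chaperones and co-chaperones, 8 were disulfide isomerases and oxidases, 5 acted in ER-associated degradation, 4 were stress sensors with the transcription factor Xbp1, 5 formed the Atf4-Ddit3 arm and 2 belonged to the translocation channel.

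The samples were whole pancreata of NMRI mice, taken at postnatal day 15. The 3 Prox1-OE samples carried the Jojo-Prox1 allele together with Ngn3-cre, and the 3 control samples carried Ngn3-cre without it. Both groups therefore shared the Cre driver, and Ngn3 marks endocrine progenitors, the source of all islet cell types. The study addressed expression changes that follow an excess of the homeobox factor Prox1 in beta cells. Values are log2 probe set intensities, and a difference of 1 on this scale is a doubling of signal.

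Secretory cells push large amounts of new protein into the ER, where chaperones hold it and oxidoreductases form its disulfide bonds. Unfolded protein draws the chaperone Hspa5 away from the sensors Ern1, Eif2ak3 and Atf6, which then raise chaperone genes, degradation genes and, through Atf4, the factor Ddit3. Both the digestive enzyme-producing acinar cells, which fill most of the pancreas, and the insulin-producing beta cells depend on this system. In whole tissue each value averages over all cell types, and fewer cells of a type cannot be told apart from less RNA per cell.

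Promoters of several members carry the sequence elements through which the response is known to act, and these are shown first because the members can be grouped by them. The ER stress element, bound by NF-Y together with Atf6 or Xbp1, reads CCAAT and CCACG with any 9 bases between. RefSeq upstream windows of 250 bases (GRCm38.p6) were at hand for 31 of the 35 genes. The element was present on either strand in 10 of these 31 windows and in 37 of all 32851 windows of the same length (0.113%). The windows below run 5' to 3' with the gene, and capitals mark the fixed letters of each match. Hspa5 is shown over the full window, ending at the base before its start, and the others around their matches.
Hspa5 (chr2:34771840-34772089, plus strand): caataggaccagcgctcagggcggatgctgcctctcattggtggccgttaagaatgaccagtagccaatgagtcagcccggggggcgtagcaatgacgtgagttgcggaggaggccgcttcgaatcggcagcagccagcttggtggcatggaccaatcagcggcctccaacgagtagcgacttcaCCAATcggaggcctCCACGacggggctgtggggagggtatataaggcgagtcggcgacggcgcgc
Hsp90b1 (chr10:86705523-86705666, minus strand): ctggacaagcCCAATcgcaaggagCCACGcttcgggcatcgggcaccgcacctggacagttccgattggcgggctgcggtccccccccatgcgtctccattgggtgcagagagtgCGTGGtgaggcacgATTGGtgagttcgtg
Calr (chr8:84847065-84847103, minus strand): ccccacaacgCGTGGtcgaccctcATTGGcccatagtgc
Canx (chr11:50325790-50325828, minus strand): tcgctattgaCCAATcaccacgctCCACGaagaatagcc
Dnajc3 (chr14:118937817-118937855, plus strand): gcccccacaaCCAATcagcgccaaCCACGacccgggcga
Creld2 (chr15:88819510-88819548, plus strand): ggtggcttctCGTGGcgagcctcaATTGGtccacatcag
Pdia6 (chr12:17266481-17266519, plus strand): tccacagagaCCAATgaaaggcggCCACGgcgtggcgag
Ero1lb (chr13:12565672-12565710, plus strand): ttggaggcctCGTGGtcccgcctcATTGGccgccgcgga
The match of Hspa5 spanned positions -65 to -47 from the start, and Hsp90b1 held 2 matches, of which the nearer spanned -107 to -89.

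Among the genes of degradation and of the Atf4 arm, only Derl3, Syvn1, Herpud1 and Chac1 held a match. Derl3 and Syvn1 held the same ER stress element. Herpud1 held the ER stress element II, which reads ATTGG and CCACG with any 1 base between, present in 10 of the 32851 windows (0.0304%) and in no other member window. Chac1 and Herpud1 held the amino acid response element TGATGNAAN, to which Atf4 binds with C/EBP partners and which occurred in 3.44% of all windows. No match overlapped another. A match describes letters only.
Derl3 (chr10:75893232-75893270, plus strand): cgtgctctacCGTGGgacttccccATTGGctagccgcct
Syvn1 (chr19:6046522-6046560, plus strand): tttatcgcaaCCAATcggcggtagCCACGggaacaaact
Herpud1 (chr8:94386306-94386397, plus strand): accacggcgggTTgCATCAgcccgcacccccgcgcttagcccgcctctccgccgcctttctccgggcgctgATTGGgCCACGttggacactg
Chac1 (chr2:119351038-119351066, plus strand): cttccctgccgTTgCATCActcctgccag

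**Figure D1:**
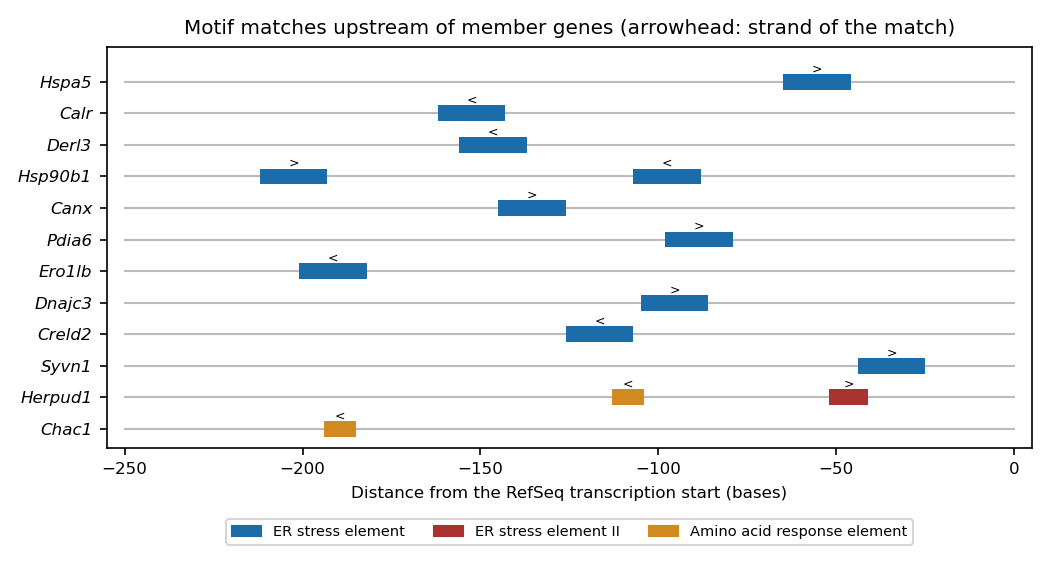
Motif matches in the 250 bases before the RefSeq start of the member genes that held any. The horizontal axis is the distance from the start in bases, each bar is 1 match and the arrowhead gives its strand; matches lay between positions -212 and -26, and Hsp90b1 and Herpud1 held 2 each.

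Depth and quality of the arrays bear on every value. Array medians ran from 4.38 to 4.42 and Pearson correlations between arrays from 0.987 to 0.994. Prox1-OE replicate 1 stood apart on the first principal component (34.6% of the variance) and control replicate 3 on the second (22.9%). For RNA quality, the 3' control probe sets exceeded the 5' ones by 0.93 ± 0.01 in Prox1-OE and 0.95 ± 0.04 in control (SD, n = 3 each; two-sided exact permutation test, p = 0.7; 3 against 3 arrays cannot go below 0.1). Prox1 itself read 5.20 ± 0.19 in Prox1-OE and 5.14 ± 0.41 in control, a difference of 0.063 ± 0.20 (SE, limma adjusted p = 0.971), and whether its probe sets read the transgene was not tested. The tissue label was borne out by acinar genes: the log2 values of 10 such markers summed to between 132.0 and 133.0 in Prox1-OE and between 132.9 and 133.6 in control. The labels leave unsaid whether each sample was a separate animal, so p-values measure the spread between these samples only.

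No gene of the module passed the test of a difference between Prox1-OE and control pancreas. In the limma fit across all genes 0 of 35 members passed an adjusted p of 0.05, where 0.0275% of all genes did, and member adjusted p ran from 0.709 to 0.994. At an unadjusted p under 0.05 there was 1 member, Herpud1, which was lower; 6.65% of all genes reached this p, 3.7% lower and 2.94% higher. The members split into 16 with a positive and 19 with a negative difference, with a median of -0.027 (all genes -0.012, 53.8% negative). The largest differences were -0.44 for Trib3 and 0.27 for Pdia3. The 95% intervals of the differences had half-widths from 0.19 (Ssr1) to 0.59 (Trib3). For 28 members the whole interval lay within 0.5 of 0, and for 33 it lay within 1.

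**Figure D2:**
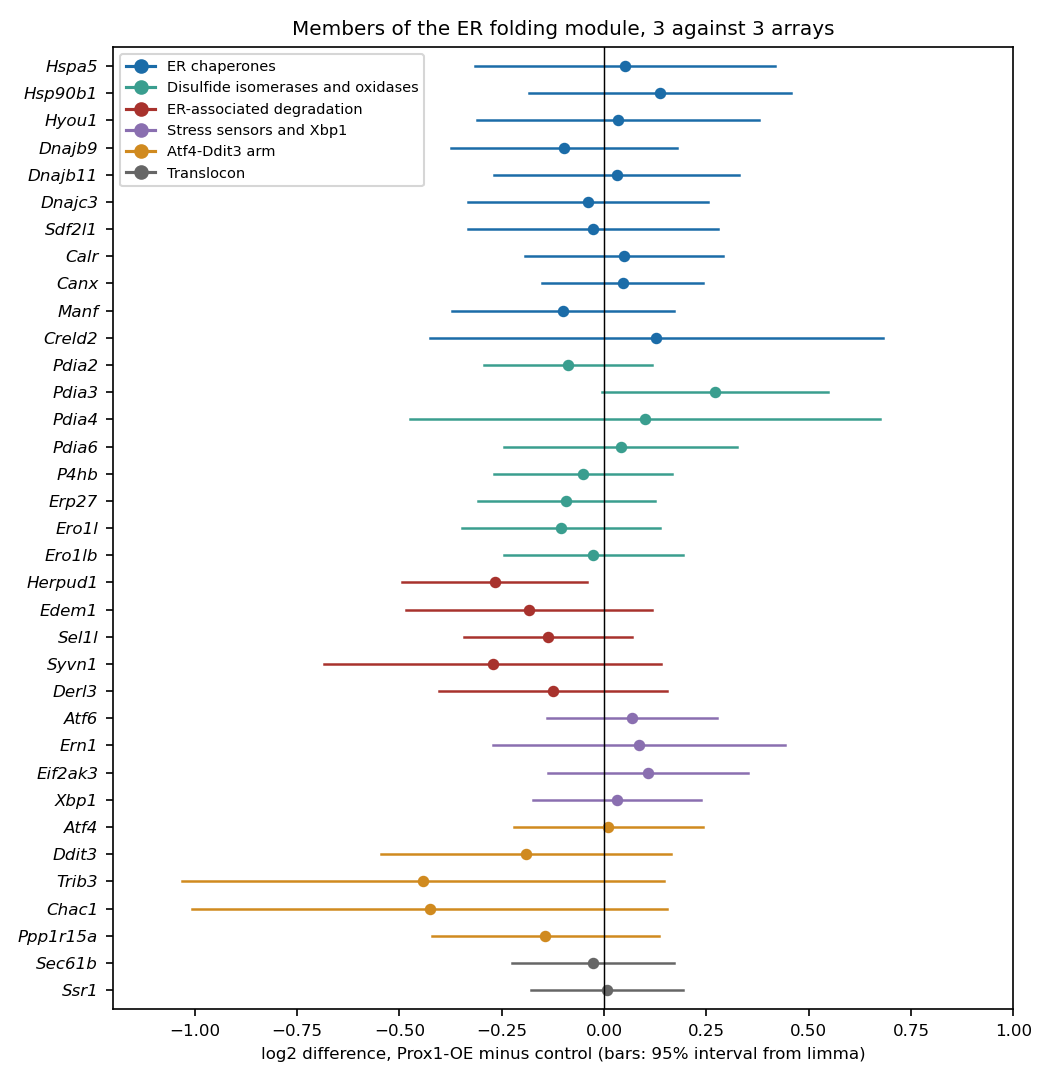
Log2 difference of each member, Prox1-OE minus control, with its 95% interval from limma (3 against 3 arrays), coloured by role. The interval of Herpud1 lies below 0 and those of all the other members include 0; Trib3 and Chac1 have the widest.

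The ER chaperones had mean differences between -0.10 and 0.14, and their spread was wider among the controls. Hspa5, the main Hsp70 chaperone of the ER (BiP), read 13.38, 13.34 and 13.24 in Prox1-OE, against 13.31, 13.59 and 12.91 in control. The Prox1-OE values lay inside the range of the controls, with a difference of 0.051 ± 0.16 (SE, limma adjusted p = 0.971; 95% interval -0.32 to 0.42). Hsp90b1, the ER member of the Hsp90 family, read 12.93, 13.10 and 12.92 in Prox1-OE, against 12.95, 13.05 and 12.54 in control. Creld2, an ER-resident stress-inducible protein, read 11.86, 12.16 and 12.00 in Prox1-OE, against 12.06, 12.31 and 11.27 in control. In each of these genes control replicate 3 was the lowest of the 6 arrays, and in Hspa5 and Creld2 control replicate 2 was the highest. The groups overlapped, with a difference of 0.14 ± 0.14 for Hsp90b1 (SE, limma adjusted p = 0.869) and of 0.13 ± 0.24 for Creld2 (limma adjusted p = 0.944).

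This order of the arrays ran through the group. Control replicate 2 was the highest array for 6 of the 11 chaperones and for 2875 of all 18193 genes. Control replicate 3 was the lowest array for 9 of the 11 and for 19.1% of all genes. The exceptions were Dnajb9, a co-chaperone that restrains Ern1, and Manf, a secreted factor that binds Hspa5, both lowest on Prox1-OE replicate 3. Among pathway genes outside the module, control replicate 3 was lowest for 44.8% of degradation genes and 37.9% of Atf4 targets and eIF2 kinases. It was lowest for 27.3% of other folding genes, 21.4% of ER entry and N-glycosylation genes and 11.8% of other stress response regulators. The standard deviation was larger among controls than among Prox1-OE arrays for 10 of the 11 chaperones and for 51% of all genes. For Hspa5 it was 0.07 in Prox1-OE and 0.34 in control. The nucleotide exchange factor Hyou1 had 0.12 in Prox1-OE and 0.29 in control, the Hspa5 partner Dnajb11 0.07 in Prox1-OE and 0.25 in control, and Sdf2l1, which works with Dnajb11, 0.08 in Prox1-OE and 0.25 in control. The glycoprotein lectin Canx varied least, over 0.16 in all, and Creld2 most, over 1.04.

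The Hspa5 cofactors and the lectins gave the same picture gene by gene. Hyou1 read 10.76, 11.00 and 10.93 in Prox1-OE, against 11.06, 11.00 and 10.53 in control. Dnajb11 read 9.66, 9.79 and 9.72 in Prox1-OE, against 9.83, 9.84 and 9.40 in control. Sdf2l1 read 11.30, 11.44 and 11.32 in Prox1-OE, against 11.43, 11.61 and 11.11 in control. In these genes 2 control arrays lay at or near the top and control replicate 3 at the bottom, so the Prox1-OE arrays lay within or close to the control range. Calr read 12.61, 12.70 and 12.70 in Prox1-OE, against 12.72, 12.71 and 12.43 in control, and Canx differed by 0.046 ± 0.09 (SE, limma adjusted p = 0.942). Dnajb9 read 9.70, 9.88 and 9.56 in Prox1-OE, against 9.91, 9.89 and 9.63 in control. Manf read 12.20, 12.23 and 12.07 in Prox1-OE, against 12.23, 12.49 and 12.09 in control. These last genes had the most negative differences of the chaperones, -0.097 ± 0.12 for Dnajb9 and -0.10 ± 0.12 for Manf (limma adjusted p = 0.899 for Dnajb9, 0.891 for Manf), and their groups overlapped.

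The sign of the chaperone differences changed with the arrays used. With all arrays 7 of 11 were positive and the median was 0.033. Without control replicate 3, 10 of 11 were negative and the median was -0.13, with Hspa5 at -0.13, Hyou1 at -0.13 and Creld2 at -0.18. Without control replicate 2, 10 of 11 were positive and the median was 0.096. No chaperone passed without either array. Over the whole module 29 of 35 differences were negative without control replicate 3, with 0 past the threshold. The module median was then -0.11, against -0.011 over all genes. On control replicate 3 the chaperones averaged -0.27 from the control mean. On this array the 8 beta cell markers averaged -0.25, the 3 alpha cell markers -0.19, the 10 macrophage markers -0.16 and the 10 acinar markers -0.018. The 9 B and plasma cell markers averaged -0.020, the 6 fibroblast markers 0.057, the 6 T cell markers 0.059 and the 4 ductal markers 0.075. Of the 8 beta cell markers 1 was lowest there, of the 3 alpha cell markers 2, and 7 of the macrophage markers were lowest there. The log2 values of the macrophage markers summed to 71.1 to 76.2 in Prox1-OE and 66.1 to 69.1 in control, and those of the alpha cell markers to 27.7 to 28.5 in Prox1-OE and 27.9 to 29.2 in control. The acinar enzymes among the markers read near the array maximum, where a change may be hidden. The part of these cell types in the chaperone values was not tested.

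**Figure D3:**
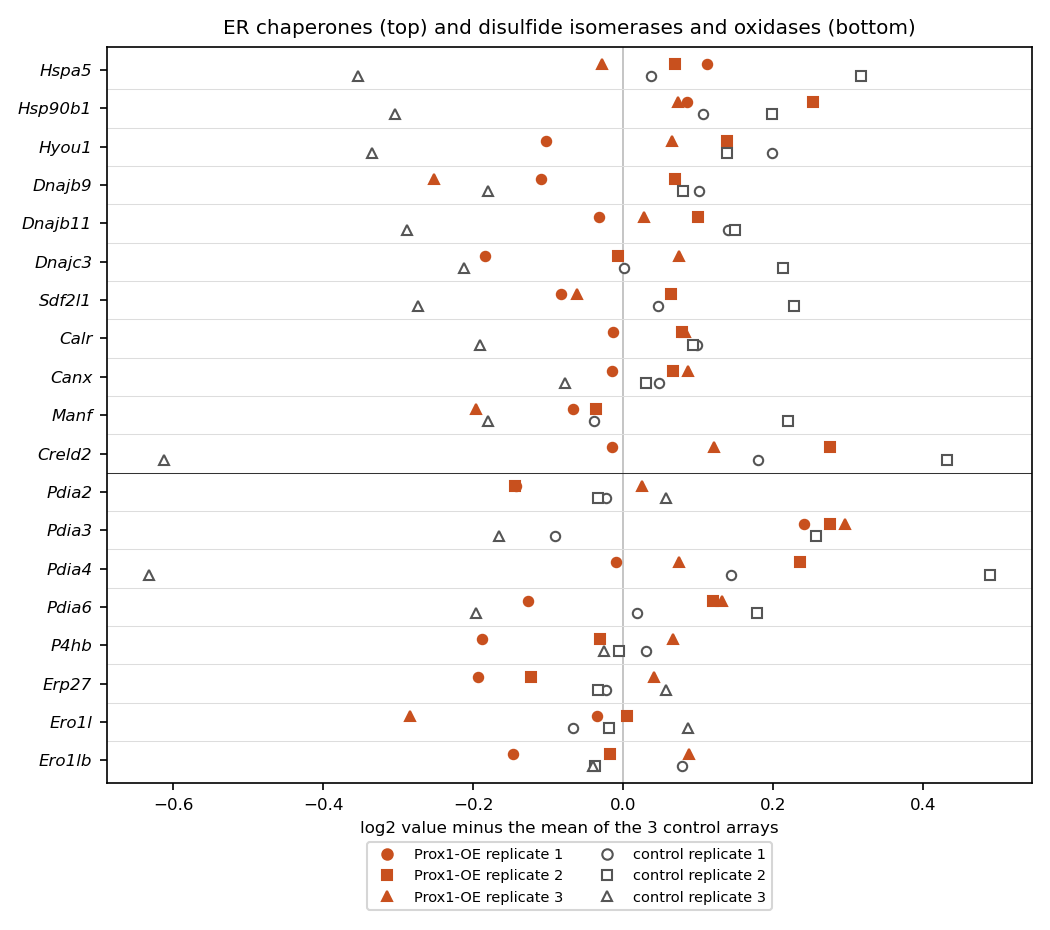
Each member chaperone (upper block) and disulfide isomerase or oxidase (lower block) on each array, as the log2 value minus the mean of the 3 control arrays; Prox1-OE points are filled and control points open. The triangle of control replicate 3 is the leftmost control point in all 11 chaperones, lies far to the left in Creld2 and Pdia4, and is the rightmost control point in Pdia2, Erp27 and Ero1l.

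Of the 8 disulfide isomerases and oxidases, 3 were lowest on control replicate 3, as most chaperones were, and the others were not. Pdia4, an isomerase with several thioredoxin-like domains, read 10.53, 10.77 and 10.61 in Prox1-OE, against 10.68, 11.03 and 9.91 in control, and Pdia6 and Pdia3 were likewise lowest on control replicate 3. Its difference was 0.10 ± 0.25 (SE, limma adjusted p = 0.958), and -0.22 without control replicate 3. Pdia3, the isomerase that works with the lectins Calr and Canx on glycoproteins, had the highest positive difference of the module. It read 11.75, 11.78 and 11.80 in Prox1-OE, against 11.41, 11.76 and 11.34 in control. Its Prox1-OE arrays agreed within 0.06, and control replicate 2 lay among them. The difference was 0.27 ± 0.12 (limma adjusted p = 0.753; unadjusted p = 0.0539), and its 95% interval ran from -0.0058 to 0.55. Without any one array the difference of Pdia3 stayed positive, between 0.19 and 0.40. The other probe set of Pdia3, dimmer, differed by -0.13.

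Pdia2, Erp27, P4hb and Ero1lb were not lowest on control replicate 3. Pdia2, a pancreatic isomerase, read 13.31, 13.30 and 13.47 in Prox1-OE, against 13.43, 13.42 and 13.51 in control, and was highest on control replicate 3. Erp27, a family member without catalytic cysteines, read 10.75, 10.82 and 10.98 in Prox1-OE, against 10.92, 10.91 and 11.00 in control. The groups overlapped in both genes. The difference was -0.088 ± 0.09 for Pdia2 and -0.092 ± 0.09 for Erp27 (SE; limma adjusted p = 0.870 for Pdia2, 0.869 for Erp27). P4hb, the founding isomerase, and the oxidase Ero1lb, which recharges isomerases and is abundant in islets, differed by -0.051 and -0.026. Ero1l, the widely expressed oxidase, read 7.67, 7.71 and 7.42 in Prox1-OE, against 7.64, 7.69 and 7.79 in control, with Prox1-OE replicate 3 the lowest array. In the 4 genes Pdia2, P4hb, Erp27 and Ero1lb the 6 arrays spanned 0.20 to 0.25, where Pdia4 spanned 1.12 and the median gene 0.38.

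All 5 genes of ER-associated degradation, the route by which misfolded proteins leave the ER for the proteasome, had negative differences, and none passed. Herpud1, a membrane scaffold of the degradation complex, read 10.81, 10.84 and 10.60 in Prox1-OE, against 10.94, 11.01 and 11.08 in control. It was the 1 member whose groups did not overlap, where 12.1% of all genes lay apart in either direction and 7.02% in this one. Its difference was -0.27 ± 0.10 (SE, limma adjusted p = 0.709; unadjusted p = 0.0261). The other probe set of Herpud1 differed by -0.17. Without any one array the difference was between -0.31 and -0.19. The unadjusted p was over 0.05 without Prox1-OE replicate 3, control replicate 2 or control replicate 3.

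The ligase complex gave the same direction with more overlap. Syvn1, the ubiquitin ligase Hrd1, read 8.50, 8.62 and 8.24 in Prox1-OE, against 8.69, 9.09 and 8.40 in control. Sel1l, its adaptor, read 12.33, 12.42 and 12.27 in Prox1-OE, against 12.48, 12.55 and 12.39 in control. In Sel1l a single Prox1-OE array lay above the lowest control, and in Syvn1 control replicate 3 lay below 2 of the Prox1-OE arrays. The differences were -0.27 ± 0.18 for Syvn1 and -0.14 ± 0.09 for Sel1l (limma adjusted p = 0.8 for both). Syvn1 was at -0.090 without control replicate 2 and at -0.44 without control replicate 3. Edem1, which hands glycoproteins over for degradation, read 10.83, 11.13 and 11.30 in Prox1-OE, against 11.21, 11.21 and 11.39 in control, and its second probe set differed by 0.0021. Derl3, of the membrane channel, read 9.87, 10.09 and 10.11 in Prox1-OE, against 10.30, 10.20 and 9.94 in control. The groups overlapped in both, with differences of -0.18 ± 0.13 for Edem1 (limma adjusted p = 0.812) and -0.12 ± 0.12 for Derl3 (limma adjusted p = 0.865). Edem1 was at -0.056 without Prox1-OE replicate 1 and at -0.29 without Prox1-OE replicate 3. Derl3 was at -0.047 without Prox1-OE replicate 1, at -0.048 without control replicate 1 and at -0.23 without control replicate 3.

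Averaged over the 5 degradation genes, the arrays lay -0.26, -0.11 and -0.22 from the control mean in Prox1-OE and -0.0024, 0.087 and -0.084 in control. The 5 differences were negative under each of the alternative settings tried and without each array, and their median of -0.18 was between -0.23 and -0.10 without one array, with -0.10 without control replicate 2. Of the 29 other measured degradation genes, 14 were negative and 15 positive, with a median of 0.0014. Members and lists alike were chosen with earlier results of these data known. Edem2, a mannosidase-like relative of Edem1, read 9.79, 9.97 and 10.19 in Prox1-OE, against 10.33, 10.24 and 10.52 in control, a difference of -0.38 ± 0.13 (limma adjusted p = 0.690). Jkamp, a membrane partner of degradation factors, had a difference of 0.23 ± 0.09 (limma adjusted p = 0.721), and 0 of the 29 passed. Beside these values, 8 of 8 measured beta cell markers were negative (summed log2 values 54.7 to 57.0 in Prox1-OE and 59.2 to 63.3 in control). So were 9 of 10 acinar markers, whose enzymes read near the array maximum. By contrast, 9 of 10 macrophage and 7 of 9 B and plasma cell markers were positive (B and plasma cell sum 39.3 to 52.9 in Prox1-OE and 37.2 to 38.3 in control). Much of this lay on Prox1-OE replicate 1, the highest array for 8 of the 9 B and plasma cell and 8 of the 10 macrophage markers. Over the control mean, the B and plasma cell markers averaged 1.70, 0.18 and 0.51 on the Prox1-OE arrays, and the macrophage markers 0.85, 0.34 and 0.34. The part of these cell types in the degradation values was not tested.

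**Figure D4:**
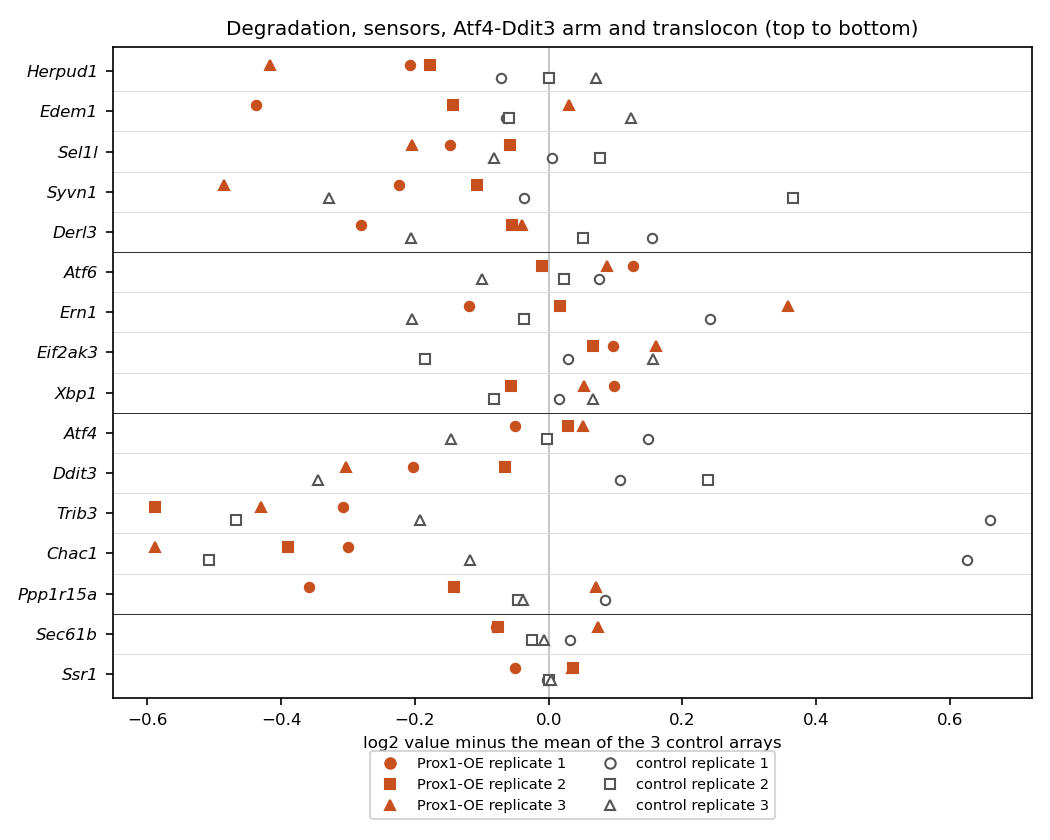
Members of ER-associated degradation, the sensors with Xbp1, the Atf4-Ddit3 arm and the translocon on each array, as the log2 value minus the mean of the 3 control arrays; Prox1-OE points are filled and control points open. Herpud1 is the gene with no overlap between the groups, and control replicate 1 lies far to the right in Trib3 and Chac1.

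The sensors and Xbp1 had differences of at most 0.11. Xbp1, the factor that the sensor Ern1 activates by splicing its mRNA, read 12.59, 12.43 and 12.54 in Prox1-OE, against 12.51, 12.41 and 12.56 in control, a difference of 0.031 ± 0.09 (SE, limma adjusted p = 0.966). A probe set level does not measure that splicing. Eif2ak3 (PERK), the kinase that slows translation under ER stress, read 9.85, 9.82 and 9.91 in Prox1-OE, against 9.78, 9.57 and 9.91 in control. Atf6, the membrane-bound factor released by cleavage, differed by 0.068 and Ern1 by 0.086. All 4 differences were positive, with limma adjusted p from 0.865 to 0.966, and the groups overlapped in each. The probe sets of Ern1 differed among themselves from -0.17 to 0.23. Both ends came from dim probe sets, with means of 4.69 and 3.01, against 8.46 for the chosen one.

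In the Atf4-Ddit3 arm 4 of 5 differences were negative and none passed. Trib3, a pseudokinase induced by Atf4 and Ddit3, read 6.32, 6.04 and 6.2 in Prox1-OE, against 7.29, 6.16 and 6.44 in control. Chac1, a glutathione-degrading enzyme and Atf4 target, read 8.99, 8.90 and 8.70 in Prox1-OE, against 9.91, 8.78 and 9.17 in control. In both genes control replicate 1 was the highest array, and control replicate 2 lay among the Prox1-OE arrays. The differences were -0.44 ± 0.26 for Trib3 (SE, limma adjusted p = 0.779) and -0.43 ± 0.25 for Chac1 (limma adjusted p = 0.783). Without control replicate 1 they were -0.11 for each, and without control replicate 2 they were -0.68 for each.

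Atf4 itself, whose protein is controlled mainly through translation, read 10.33, 10.41 and 10.43 in Prox1-OE, against 10.53, 10.37 and 10.23 in control, a difference of 0.01. Ddit3 (CHOP), a factor of prolonged ER stress, read 7.02, 7.16 and 6.92 in Prox1-OE, against 7.33, 7.46 and 6.88 in control. Its lowest array was control replicate 3, as for most chaperones, and the difference was -0.19 ± 0.15 (SE, limma adjusted p = 0.833). Without control replicate 3 it was -0.36 (limma adjusted p = 0.739), and without control replicate 2 it was -0.071 (limma adjusted p = 0.953). Ppp1r15a (GADD34), which restores translation, differed by -0.14, and by -0.036 without Prox1-OE replicate 1.

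High values on control replicate 1 were also seen beyond the module. Of the 5 members of the arm 4 were highest there, as were 18 of the 29 other measured Atf4 targets and eIF2 kinases, and 3035 of all 18193 genes. Those 29 genes averaged -0.13, -0.0035 and -0.041 over the control mean on the Prox1-OE arrays, against 0.15, -0.03 and -0.12 on the controls. Among them Wars, a tRNA synthetase, had a difference of -0.32 ± 0.13 (limma adjusted p = 0.739) and Slc3a2, a subunit of amino acid transporters, one of -0.27 ± 0.12 (limma adjusted p = 0.753), and 0 passed. Control replicate 1 was also the highest array for 5 of 8 beta cell markers, with a mean of 0.27 over the control mean. It was the highest for 2 of 3 alpha cell (mean 0.26), 5 of 10 acinar (0.043) and 2 of 4 ductal markers (-0.043). The fibroblast markers averaged 0.16 there, the macrophage markers 0.14, the B and plasma cell markers 0.072 and the T cell markers -0.056. The part of these cells in the Atf4-Ddit3 values was not tested.

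**Figure D5:**
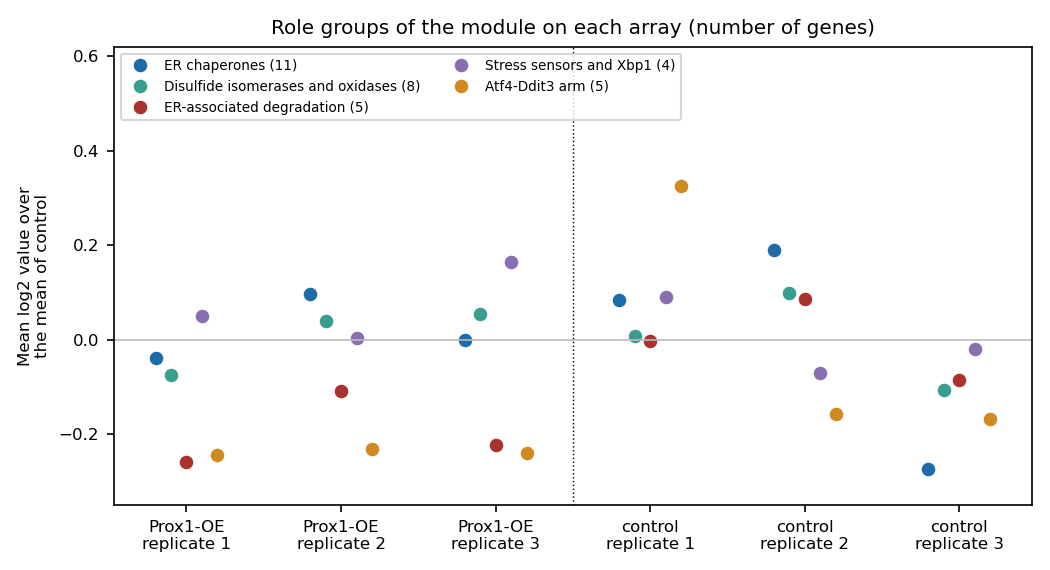
Mean of each role group on each array over its mean in control (log2), Prox1-OE arrays left of the dotted line and control arrays right of it. The degradation genes lie between -0.26 and -0.11 in Prox1-OE and between -0.084 and 0.087 in control, the chaperones are lowest on control replicate 3 (-0.27) and the Atf4-Ddit3 arm is high on control replicate 1 (0.33).

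The translocon members varied little. Sec61b, a subunit of the channel through which new proteins enter the ER, read 12.14, 12.14 and 12.29 in Prox1-OE, against 12.25, 12.19 and 12.21 in control. Ssr1, a channel-associated protein, spanned 0.087 over the 6 arrays and differed by 0.0069 ± 0.08 (SE, limma adjusted p = 0.994). The 28 other measured genes of ER entry and N-glycosylation had a median difference of 0.0091, with 17 positive and 11 negative. Dad1 and Ddost, both subunits of the complex that attaches glycans, differed by -0.15 and -0.14, and 0 passed.

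The remaining folding and regulatory genes gave no call either. Of 33 other folding genes 21 were positive, with a median of 0.024, and 0 passed the adjusted threshold. At an unadjusted p under 0.05, 4 were higher, against 2.94% of all genes, and in each the groups did not overlap, as in 5.05% of all genes. They were Tmx4, a membrane thioredoxin-like protein (0.24 ± 0.09, limma adjusted p = 0.716), Cnpy4 (0.24 ± 0.09, limma adjusted p = 0.721), Dnajc10, a disulfide reductase that works with Hspa5 in degradation (0.21 ± 0.08, limma adjusted p = 0.730), and Fkbp7, a prolyl isomerase (0.23 ± 0.09, limma adjusted p = 0.740); the last 2 were named after their values were seen. Dnajc10 read 8.99, 8.95 and 8.88 in Prox1-OE, against 8.69, 8.76 and 8.74 in control. Of 17 other regulators 8 were positive, and Creb3l1 and Creb3l3, membrane-bound factors related to Atf6, had differences of -0.21 (limma adjusted p = 0.766) and -0.18 (limma adjusted p = 0.774). Both were among 3 regulators whose groups did not overlap and were lower in Prox1-OE, as 7.02% of all genes were. Over all 136 measured genes of the other lists, the groups lay apart in 6 that were higher and 8 that were lower, and 0 passed.

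The members were also divided by the presence of an ER stress element of either kind in their upstream window. The 11 holders had a median difference of 0.041 and the 20 others -0.039. On control replicate 3 the holders averaged -0.22 and the others -0.11 from the control mean, and 7 of the 11 holders, against 7 of the 20 others, were lowest there. On the Prox1-OE arrays the holders averaged -0.092, 0.045 and -0.029, and the others -0.11, -0.04 and -0.04. The holders include the chaperones Hspa5, Hsp90b1, Calr, Canx, Dnajc3 and Creld2, all lowest on control replicate 3. Element and role were therefore not separated. These are descriptions with no test. Chac1, with the amino acid response element, was high on control replicate 1, and Herpud1, which also held it, was not.

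Several probe sets were at hand for 24 members, and for 14 of these they differed in sign. Dnajc3, which binds unfolded chains with Hspa5, is such a case: its brightest probe set differed by -0.039 and its 4 others by 0.14 to 0.20. In Canx and Edem1 the sign turned on a very small difference (-0.0019 for Canx, 0.0021 for Edem1). In Pdia4 and Atf4 it turned on a dim probe set, with a mean of 4.19 for Pdia4 and 3.51 for Atf4. Sel1l had 4 probe sets between -0.24 and -0.13 and 1 at 0.00025, and the pair of Syvn1 differed by -0.27 and -0.15. Calr, the soluble lectin chaperone, ran from -0.032 to 0.049.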

How the data were processed

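Total RNA was labelled with the Affymetrix 3' IVT kit, per the labels' protocols, and each sample was read on 1 array. The deposited values were log2 probe set summaries made by the authors with RMA and Partek 6.5, per the submitters' processing notes; their settings are not given in the sources used here. Quantile normalization, part of RMA, hides changes of total RNA. Precision is limited by how few arrays there are.

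Of 45101 probe sets, 64 were controls, and the platform annotation gave 34945 others a single symbol. Groups came from the sample titles. lmFit and eBayes of limma 3.58.1 (R 4.3.3) compared Prox1-OE with control, two-sided, without covariate or filter, with Benjamini-Hochberg adjustment over 18193 genes at 0.05. All p-values not called a permutation test come from limma, and intervals are 95%. On simulated data with 200 of the 18193 genes changed, in 10 runs, 38% of changes of 0.5 and 97.8% of changes of 1 were recovered. The simulated noise was normal and independent between genes, and in the real data only 5 genes passed. The 8 measured beta cell markers had differences down to -1.40, and 0 passed (lowest limma adjusted p = 0.292). The recovered shares are therefore not the power to call a change in a member.

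The members and lists were chosen with earlier results of these data known. Named genes were all members and, of each other list, the 2 with the smallest p. Of 144 genes of the 5 other lists, 136 were measured. The element of the chaperone promoters was set with the lists, the other motifs later. Alternatives were other probe set rules, a filter on dim genes, normalization, variance and weight settings, the replicate number as a block and leaving out each array. The labels give no pairing, so same-numbered arrays were not taken as pairs. Their deviations from the group means correlated at 0.044, 0.14 and 0.11, with no reference from differently numbered arrays, so these values do not settle pairing.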

Additional observations from a re-analysis of the deposited data

How the results depend on the processing

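No member passed the threshold under any setting tried, where the lowest adjusted p was 0.63, and 0 genes of the other pathway lists did. The count over all genes was 5, between 0 and 4 without one array, and 2 with the replicate number as a block. The members at an unadjusted p under 0.05 numbered 1, between 0 and 3 without one array, 3 with the replicate block (Herpud1, Syvn1 and Trib3), 2 with arrays centred on their medians or with trend and robust settings (Herpud1 and Pdia3), and 0 when probe sets without a cross-hybridization suffix were preferred. The median of the degradation genes lay between -0.23 and -0.10 without one array. Of 490 member differences recomputed, 453 kept their sign. The 37 that turned belonged to 17 members with differences of at most 0.14 in size. With array weights these were Hspa5 (-0.020), Hyou1 (-0.0098), Dnajb11 (-0.012), Pdia4 (-0.0037) and Atf4 (-0.0057). With the mean of the probe sets they were Dnajc3 (0.13) and Ern1 (-0.0053), with suffix-free probe sets Xbp1 (-0.073), and with quantile normalization again Atf4 (-0.016) and Ssr1 (-0.033). Without one array the ranges were Hspa5 (-0.13 to 0.21), Hsp90b1 (-0.016 to 0.24), Hyou1 (-0.13 to 0.13), Dnajb11 (-0.11 to 0.11), Dnajc3 (-0.15 to 0.067), Sdf2l1 (-0.16 to 0.087), Calr (-0.047 to 0.10), Manf (-0.19 to 0.0094), Creld2 (-0.18 to 0.34), Pdia4 (-0.22 to 0.34), Pdia6 (-0.057 to 0.13), P4hb (-0.11 to 0.018), Ero1lb (-0.082 to 0.035), Ern1 (-0.051 to 0.21), Xbp1 (-0.0096 to 0.075), Atf4 (-0.063 to 0.085), Ssr1 (-0.0078 to 0.036). Of the 18 members that kept their sign, the ranges were Dnajb9 (-0.19 to -0.02), Canx (0.0072 to 0.077), Pdia2 (-0.14 to -0.059), Pdia3 (0.19 to 0.40), Erp27 (-0.16 to -0.042), Ero1l (-0.16 to -0.015), Herpud1 (-0.31 to -0.19), Edem1 (-0.29 to -0.056), Sel1l (-0.18 to -0.10), Syvn1 (-0.44 to -0.09), Derl3 (-0.23 to -0.047), Atf6 (0.018 to 0.11), Eif2ak3 (0.016 to 0.19), Ddit3 (-0.36 to -0.071), Trib3 (-0.68 to -0.11), Chac1 (-0.68 to -0.11), Ppp1r15a (-0.25 to -0.036), Sec61b (-0.077 to -0.0012). For the excess of 3' over 5' control probe sets, Prox1-OE minus control was 0.041 for Gapdh alone, -0.069 for actin alone and -0.014 for both together. The cause of these shifts was not tested. With 3 arrays a group, the 95% intervals of the members reached 0.19 to 0.59 to either side of the difference.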
